A study of Mus musculus with 4 samples.

Results

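The 10 genes followed here act in glutathione synthesis and oxidative defence, and were measured in single epithelial cells of the mouse small intestinal crypt. They are Gclc, Gclm, Gss, Gpx1, Gpx2, Txnrd1, Srxn1, Nqo1, Hmox1 and Gsta4. These were taken from the 27998 genes of the count matrices by their symbols, all 10 were found, and each had at least 1 UMI in each of the 4 libraries. No rule on their levels was used to choose them, though they were chosen with earlier results of these data known. A UMI is a unique molecular identifier that stands for 1 captured transcript.

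Glutathione is a tripeptide of glutamate, cysteine and glycine, and is made by glutamate-cysteine ligase and then glutathione synthetase. Glutathione peroxidases use it to reduce peroxides, and glutathione S-transferases join it to reactive compounds, while the thioredoxin system reduces proteins and peroxides beside it. Many of these genes are textbook targets of the transcription factor NRF2, which acts through antioxidant response elements. Paneth cells sit at the crypt base and secrete antimicrobial peptides, above all alpha-defensins.

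The study asked what the loss of the amino acid transporter SLC7A5 does to the intestinal epithelium. In the libraries labelled IEC-KO, the mice carried Slc7a5 alleles with loxP sites around exon 1 and a Cre transgene under the villin promoter, which is active throughout the intestinal epithelium. In the libraries labelled fl/fl, the mice carried the same floxed alleles without Cre. All mice were 8 weeks old and had no other treatment, and live EpCAM-positive, CD45-negative cells were sorted from crypts and sequenced from the 3′ end of the transcripts. There were 2 libraries per genotype. The sources name 4 mice but not the mice behind each library, so p-values measure only the spread between these libraries.

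The libraries held 3633 and 3217 cells (fl/fl) and 10004 and 9644 cells (IEC-KO), with 87922473 to 127094508 UMIs each. The median cell had 22242 and 32549 UMIs in the fl/fl libraries and 6700 and 9718 in the IEC-KO libraries, and at most 132 barcodes were shared by any pair of libraries. Slc7a5 itself went against the labels in the sum of all cells. It had 140 and 128 UMIs in the fl/fl libraries and 350 and 615 in the IEC-KO libraries, a log2 fold change of 1.11 (SE 0.13, adjusted p = 1.05e-07, edgeR). Counts from the 3′ end cannot show a loss of exon 1, so genotypes are used here as labelled. Levels are given in counts-per-million (CPM) scaled by TMM, a scaling that sets the change of the typical gene near 0. Genes that differ between the sexes also moved with the labels. In Paneth cells, Xist was at 50.1 and 58.6 CPM (fl/fl) and 166 and 188 CPM (IEC-KO), and Ddx3y, a gene of the Y chromosome, at 4.74 and 4.78 CPM against 1.66 and 1.27 CPM. Both genes were found in every library, in proportions that moved with the label, and the part of sex in the results was not tested.

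Cells in which alpha-defensin genes took at least 30% of the UMIs were called Paneth cells, and there were 2020 and 1950 of them in the fl/fl libraries and 2019 and 2336 in the IEC-KO libraries. The limit lay in a sparse range of the fl/fl libraries, with 36 and 21 cells from 28% to under 30% and 37 and 23 cells from 30% to under 32%. In the IEC-KO libraries 276 and 247 cells lay just under it and 314 and 314 just above. From 20% to under 30% there were 120 and 89 cells (fl/fl) and 1305 and 1218 cells (IEC-KO). A cluster under 20% named by Paneth markers held 0 and 1 cells (fl/fl) and 725 and 652 cells (IEC-KO). Neither set entered the main tests, so the Paneth cells of the IEC-KO libraries are those richer in alpha-defensins. Cells under 20% were split by markers into cells like tuft, enteroendocrine, enterocyte, transit-amplifying (TA) and goblet cells, which are called goblet-like and so on because the names rest on markers. A clustering of all cells put the Paneth cells of the labels into different clusters. One led by Gm15292 and Defa21 held 1852 and 1765 cells of the fl/fl libraries and 44 and 8 of the IEC-KO libraries, while clusters led by Gm15299 (12, 11, 2127 and 2025 cells) and by Try5 and Reg4 (6, 7, 1358 and 1506 cells) were mostly of the IEC-KO libraries. The median Paneth cell had 46965 and 52852 UMIs in the fl/fl libraries and 13782 and 20159 in the IEC-KO libraries. By class, Slc7a5 was at 0.96 and 0.81 CPM without TMM (fl/fl) and 4.16 and 4.71 (IEC-KO) in Paneth cells, and at 2.77 and 3.40 against 4.31 and 4.73 in goblet-like cells. It was lower in the IEC-KO libraries in TA-like cells (3.07 and 2.82 against 1.93 and 2.14), and in tuft-like and enteroendocrine-like cells, where it had 1 to 3 UMIs per library. In enterocyte-like cells the libraries overlapped.

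In Paneth cells, 3 of the 10 genes were higher and 4 were lower in the libraries labelled IEC-KO. Hmox1 rose most (log2 fold change 2.38), followed by Gpx2 (0.43) and Gclc (0.36). Nqo1 fell by 1.00 on the log2 scale, while Gsta4 (-0.52), Gpx1 (-0.44) and Srxn1 (-0.42) were lower with TMM but lay above 0 with scaling by library size only. Gclm, Gss and Txnrd1 did not pass the test. Of all 12492 genes tested in Paneth cells, 20.1% were higher and 19.8% lower, and shares of a group of 10 genes are coarse beside these. The change was tested by the quasi-likelihood test of edgeR on the UMIs summed per library with Benjamini-Hochberg adjustment over all genes.

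**Figure D1:**
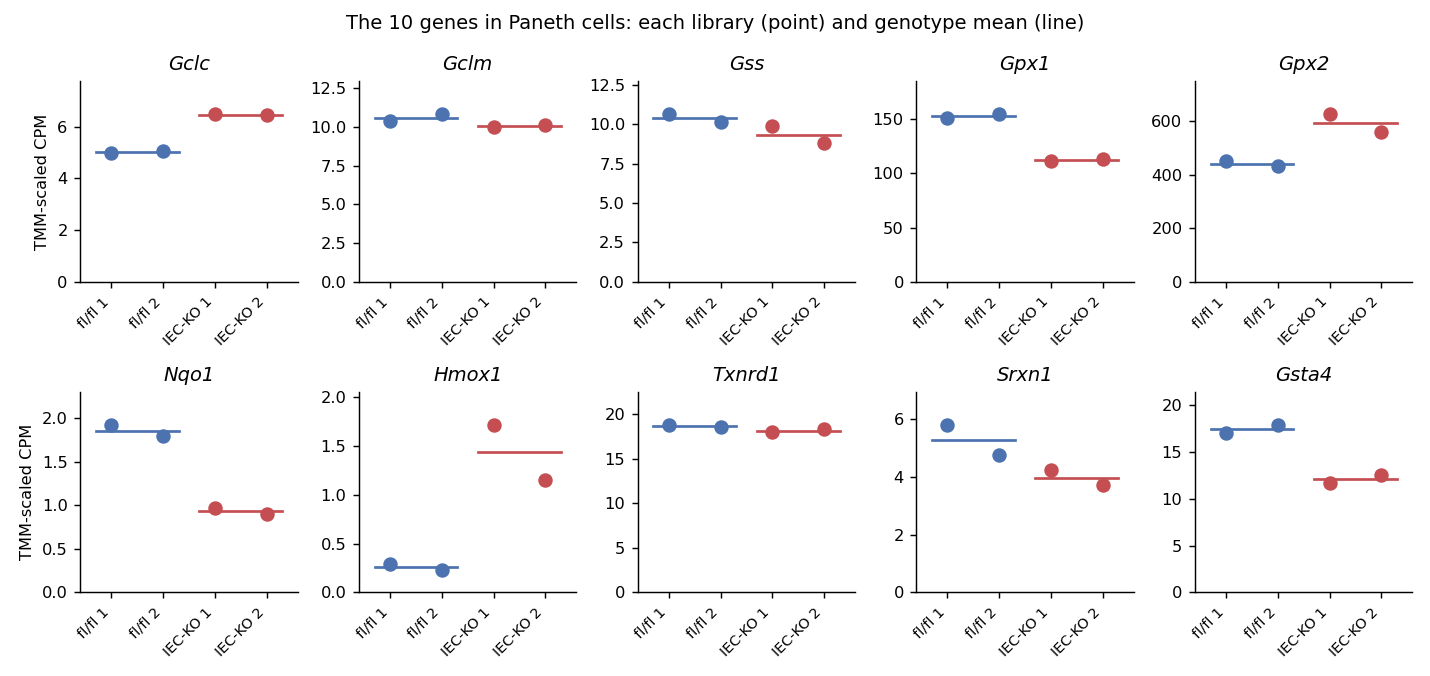
TMM-scaled CPM of the 10 genes in Paneth cells, 1 point per library and a line at the mean of each genotype label (n = 2 per genotype). Hmox1, Gpx2 and Gclc were higher in both libraries labelled IEC-KO, while Gpx1, Nqo1, Srxn1 and Gsta4 were lower in both, a direction that Gpx1, Srxn1 and Gsta4 did not keep with library size only.

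The scale decides the direction for much of the group. The genes that fill Paneth cells moved with the label: in the median Paneth cell the alpha-defensin share was 41.1% and 43.9% in the fl/fl libraries and 36.1% and 36.5% in the IEC-KO libraries. The 20 Paneth markers together took 653754 and 667440 CPM without TMM in the former and 542163 and 518081 in the latter. When only library size was used, the median gene in Paneth cells shifted by 0.62 on the log2 scale, 7 of the 10 genes were higher and 0 were lower (70.4% and 3.63% of all genes). Gpx1 (0.18), Srxn1 (0.20) and Gsta4 (0.10) then lay above 0, of which Gpx1 passed the test, and Gclm (0.55), Gss (0.46) and Txnrd1 (0.58) were called higher. Nqo1 stayed below 0 (-0.38, adjusted p = 0.0897), and Gclc (0.98), Gpx2 (1.04) and Hmox1 (3.00) stayed higher. The changes given for Paneth cells are therefore relative to the typical gene of these cells. Fewer transcripts of a gene per cell and more transcripts of other genes cannot be told apart in such counts.

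**Figure D2:**
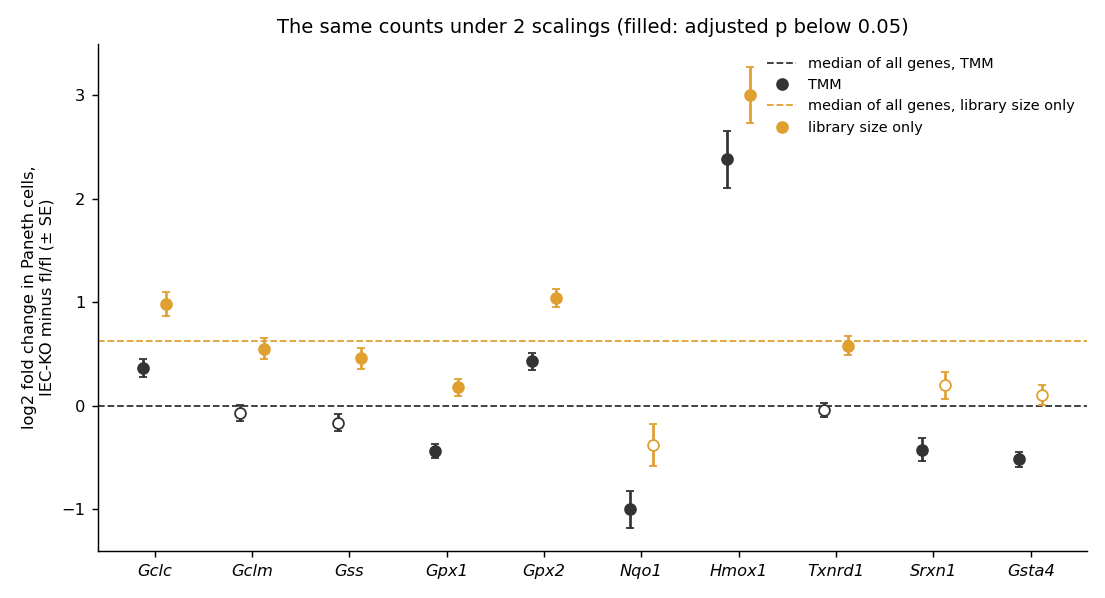
Log2 fold change (IEC-KO against fl/fl) of the 10 genes in Paneth cells with TMM and with scaling by library size only; the dashed lines mark the median of all genes on each scale (near 0 and 0.62). Hmox1, Gpx2 and Gclc lie above both medians, and Nqo1, Gsta4, Gpx1 and Srxn1 lie below both.

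The enzymes of glutathione synthesis come first. Gclc (chr9:77754535-77794485, plus strand, GRCm38), the catalytic subunit of glutamate-cysteine ligase, was at 4.99 and 5.05 CPM in the fl/fl libraries and at 6.48 and 6.46 CPM in the IEC-KO libraries. The genotypes did not overlap, and the replicates of each lay close together (log2 fold change 0.36, SE 0.09, adjusted p = 0.00271, edgeR). Of all genes tested in Paneth cells, 69.5% did not overlap, so a lack of overlap sets no gene apart there. The change of Gclc was 0.01 (adjusted p = 0.989) when each cell was thinned to 2000 UMIs, and 0.02 (adjusted p = 0.967) among Paneth cells of at least 40% alpha-defensin. Gclm (chr3:122245557-122270732, plus strand), the modifier subunit that raises the efficiency of the enzyme, was at 10.4 and 10.8 CPM and at 10.0 and 10.1 CPM. Gss (chr2:155563181-155592810, minus strand), the synthetase that adds glycine, was at 10.6 and 10.2 CPM against 9.87 and 8.82 CPM. Neither passed the test (Gclm -0.07, adjusted p = 0.497; Gss -0.17, adjusted p = 0.117), although Gss was called lower without IEC-KO replicate 1 (-0.23, adjusted p = 0.0366). An exon of Gss overlaps Acss2 on the opposite strand (1568 UMIs in all cells against 6674 of Gss), and the use of strand in the counting is not given in the sources used here.

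Both glutathione peroxidases of the group were abundant, and with TMM, though not with library size only, they moved in opposite directions. Gpx1 (chr9:108338903-108340343, plus strand), the peroxidase of the cytosol found in most tissues, was at 151 and 154 CPM in the fl/fl libraries and at 111 and 114 CPM in the IEC-KO libraries. Gpx2 (chr12:76792333-76795554, minus strand), the peroxidase typical of gastrointestinal epithelium, was at 451 and 433 CPM and at 626 and 562 CPM. The genotypes overlapped for neither gene (Gpx1 -0.44, SE 0.07, adjusted p = 2.89e-05, but 0.18 with library size only; Gpx2 0.43, SE 0.09, adjusted p = 0.000448; edgeR). A lack of overlap was found for 69.5% of all genes tested. A further scale was CPM of the UMIs outside the 13 alpha-defensin genes with Defa symbols. Paneth markers under other symbols, such as Gm15292, stayed in its total, so it is not free of the Paneth marker share, which moved with the label. On that scale Gpx1 was at 214, 215, 213 and 229, whereas Gpx2 went from 639 and 604 to 1202 and 1130. An exon of Gpx2 overlaps Fntb on the opposite strand, which had 2418 UMIs in all cells against 292636 of Gpx2.

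GPX1, GPX2 and TXNRD1 share a feature that the choice of genes did not use, the amino acid selenocysteine, which is read from a TGA codon that ends translation elsewhere. The codon (capitals) is shown with the bases beside it on the coding strand of the GENCODE transcript, because it is the active-site residue of both peroxidases and the last residue but one of thioredoxin reductase.
Gpx1, codon 47 of 201, chr9:108339451-108339453: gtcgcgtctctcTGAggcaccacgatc
Gpx2, codon 40 of 190, chr12:76795256-76795258: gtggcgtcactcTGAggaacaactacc
Txnrd1, codon 498 of 499, chr10:82896037-82896039: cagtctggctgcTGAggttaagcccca
On the TMM scale these 3 selenoprotein transcripts did not share a direction in Paneth cells, as Gpx1 fell, Gpx2 rose and Txnrd1 did not pass the test, while with library size only all 3 were higher.

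Of the thioredoxin system, the group holds a reductase and a repair enzyme. Txnrd1 (chr10:82833951-82897712, plus strand), the cytosolic thioredoxin reductase, was at 18.8 and 18.6 CPM in the fl/fl libraries and at 18 and 18.3 CPM in the IEC-KO libraries. Its change was -0.04 on the log2 scale (SE 0.07, adjusted p = 0.685, edgeR), although the library values did not overlap. Srxn1 (chr2:152105516-152111376, plus strand), sulfiredoxin, which restores overoxidised peroxiredoxins, was at 5.79 and 4.77 CPM and at 4.23 and 3.73 CPM. It was lower with TMM (-0.42, SE 0.11, adjusted p = 0.00494) but at 0.20 with library size only, and the fl/fl libraries differed from each other by more than the distance from fl/fl replicate 2 to IEC-KO replicate 1. The call for Srxn1 was lost without fl/fl replicate 1 (-0.28, adjusted p = 0.0949), without IEC-KO replicate 2 (-0.32, adjusted p = 0.0687) and with DESeq2 (-0.41, adjusted p = 0.0618). Srxn1 was at -0.15 (adjusted p = 0.823) with cells thinned to 2000 UMIs and at -0.29 (adjusted p = 0.284) among Paneth cells of at least 40% alpha-defensin.

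Nqo1, Hmox1 and Gsta4 are inducible enzymes often read as NRF2 targets, and on the TMM scale they did not move together in Paneth cells. Nqo1 (chr8:107388225-107403206, minus strand), a quinone reductase, was at 1.92 and 1.80 CPM in the fl/fl libraries and at 0.96 and 0.90 CPM in the IEC-KO libraries, from 151, 145, 36 and 61 UMIs (-1.0, SE 0.18, adjusted p = 0.000125, edgeR). Gsta4 (chr9:78182774-78209349, plus strand), a transferase that joins glutathione to aldehydes from lipid peroxidation, was at 17.1 and 17.8 CPM and at 11.7 and 12.6 CPM (-0.52, SE 0.07, adjusted p = 8.36e-06, but 0.10 with library size only). The genotypes did not overlap for either gene, as for 69.5% of all genes tested. Nqo1 lost its call among Paneth cells of at least 40% alpha-defensin (-0.63, adjusted p = 0.123).

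Hmox1 (chr8:75093621-75100589, plus strand), heme oxygenase, which opens the ring of free heme, was rare and yet showed the largest change of the group. Paneth cells gave 23 and 19 UMIs in the fl/fl libraries and 64 and 78 UMIs in the IEC-KO libraries, out of 197735839 UMIs of Paneth cells in the former and 84254639 in the latter. On the TMM scale this was 0.29 and 0.24 CPM against 1.71 and 1.16 CPM (log2 fold change 2.38, SE 0.27, adjusted p = 3.63e-07, edgeR). The genotypes did not overlap, as for 69.5% of all genes tested. Without TMM, the ratio of the pooled UMIs, each over its total, was 7.93 with an exact 95% interval of 5.59 to 11.5, which covers counting error only. This ratio is not on the TMM scale, as with library size only the median gene in Paneth cells lay at 0.62 on the log2 scale. The UMIs were spread over 23, 18, 63 and 76 cells with at most 2 UMIs in a cell. A list of 10 macrophage markers, from cells that can carry Hmox1, was summed as well. It took 40.2 and 30.7 CPM without TMM in the Paneth cells of the fl/fl libraries and 18 and 14.4 in those of the IEC-KO libraries, with none of the 10 at 0. The list holds the lysozyme gene Lyz2, and Paneth cells secrete lysozyme, so this sum does not measure macrophage RNA alone. In the Paneth cluster led by Gm15292 and Defa21, 1 marker of the list was raised. Genes of dissociation stress also moved with the label in Paneth cells. With TMM, 8 of 15 were higher and 3 lower (median 0.21), beside 20.1% and 19.8% of all genes. Their sum was 135 and 124 against 219 and 229 CPM without TMM, a scale on which the median gene shifted by 0.62. The part of either list in the result was not tested.

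The change of these genes was then measured in the other cell classes. Goblet-like cells numbered 646 and 481 in the fl/fl libraries and 2903 and 2485 in the IEC-KO libraries, and Gsta4 was higher and Gclm lower there (9.31% of all 10772 genes were higher and 8.84% lower). Hmox1, given further on, entered that test through the libraries in which it was high. Gsta4 was at 51.8 and 51.3 CPM in the fl/fl libraries and at 95.1 and 81.7 CPM in the IEC-KO libraries, a log2 fold change of 0.77 (SE 0.09, adjusted p = 1.64e-06, edgeR). The IEC-KO values lay above both fl/fl values, opposite to the direction in Paneth cells on the TMM scale. Of all genes tested in goblet-like cells, 57.3% did not overlap. When all libraries were held to the same lower limit of 9670 UMIs per cell, however, the change of Gsta4 in goblet-like cells was 0.01 (adjusted p = 0.96). Under that limit Gpx2 (0.49, adjusted p = 3.78e-05) and Txnrd1 (0.34, adjusted p = 0.046) passed instead, against 0.09 and 0.13 without it.

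The goblet-like cells of the labels came from different clusters. Most of those in the fl/fl libraries lay in a cluster led by C2cd4a and Gm15292 (433 and 322 cells, against 86 and 121 in the IEC-KO libraries). Serpina1b and Sval1 were also among its leading genes. An unnamed cluster led by Serpina1b and Sval1 (3, 5, 617 and 563 cells), with goblet markers raised, was left out of the tests. A cluster led by Sprr2a3 and Ddit3 had 0 cells in the fl/fl libraries and 530 and 503 in the IEC-KO libraries. A cluster led by Rnase1 and Fam46c (70 and 57 cells, against 737 and 604) was named goblet-like with 5 of 26 goblet markers raised. Of the 8 Paneth markers outside the alpha-defensins 4 were raised in it too, and Defa17 was among its leading genes. The part of such cells in the goblet-like results was not tested. Gsta4 itself was among the leading genes of a further cluster, led by Zg16 (112, 84, 972 and 787 cells). Within that cluster Gsta4 was at 159 and 121 CPM without TMM in the fl/fl libraries and at 221 and 195 in the IEC-KO libraries. Within the C2cd4a-led cluster it was at 33.7 and 40.3 against 67.1 and 68.1. Both libraries labelled IEC-KO were higher in these clusters, and in the Rnase1-led cluster too (7.27 and 10.3 against 15.9 and 15.4). In a cluster led by Scd2 and Ccl9 the libraries overlapped (23.8 and 10.7 against 27.5 and 22.5), from 7 and 2 UMIs in the fl/fl libraries. The share of all genes without overlap was not computed within clusters.

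Hmox1 was rare in goblet-like cells as well, with 3 and 2 UMIs in the fl/fl libraries and 53 and 78 in the IEC-KO libraries. It passed the filter on low counts only through the IEC-KO libraries, so its fitted change is no support here and DESeq2 gave it no adjusted p. The ratio of its pooled UMIs, each over its total and so without TMM, was 8.61 (exact 95% interval 3.60 to 27.0), which covers counting error only. The macrophage list, Lyz2 included, took 9.91 and 8.23 against 5.83 and 5.84 CPM without TMM here, with C1qc and Adgre1 at 0, and its part was not tested. In the Sprr2a3-led cluster Hmox1 was at 6.90 and 7.79 CPM without TMM in the IEC-KO libraries (21 and 32 UMIs). Gclm was at 25.1 and 23.7 CPM and at 19.4 and 20.1 CPM (-0.31, adjusted p = 0.0412), a call that was lost without each of the 4 libraries in turn.

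In TA-like cells, the dividing progenitors, 9 of the 10 genes were tested and Gpx2 alone was higher (5.16% of genes were higher and 3.47% lower). Gpx2 was at 1161 and 1124 CPM in the fl/fl libraries and at 1400 and 1328 CPM in the IEC-KO libraries, which did not overlap (log2 fold change 0.25, SE 0.07, adjusted p = 0.0135, edgeR). Of all genes tested in TA-like cells, 50% did not overlap. The call was lost without fl/fl replicate 1 (adjusted p = 0.236), without fl/fl replicate 2 (adjusted p = 0.372) and with scaling by library size only (0.19, adjusted p = 0.106). Hmox1 had 6, 3, 9 and 19 UMIs there and was not tested.

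Enterocyte-like cells, the absorptive lineage, showed a similar value for Gpx2 without a call. It was at 883 and 837 CPM in the fl/fl libraries and at 1091 and 1046 CPM in the IEC-KO libraries (0.31, SE 0.09, adjusted p = 0.0524, edgeR). Of the 9 genes tested there 0 passed by edgeR, where 1.51% of all genes were higher and 0.843% lower. By DESeq2 0 passed as well (0.41% and 0.257% of all genes). An unadjusted p under 0.05 was found for 2 of the 9, Gpx2 and Srxn1. In enteroendocrine-like cells, the hormone-producing cells, 7 genes were tested and 0 passed by edgeR (0.7% of all genes were higher, 0.42% lower), 1 of them, Gsta4, with an unadjusted p under 0.05. DESeq2 called 0 as well, and gave no adjusted p for 3 of the 7, Gclc, Gss and Gsta4. Gsta4 rested there on 2, 1, 26 and 39 UMIs (2.34, adjusted p = 0.0965, edgeR). It passed the filter on low counts only through the IEC-KO libraries, so its fitted change and its p-values are no support. In tuft-like cells, the chemosensory cells, 7 were tested and 0 passed by edgeR (1.15% of all genes were higher, 0.532% lower), 0 of them with an unadjusted p under 0.05. By DESeq2 0 passed as well (0.593% and 0.327% of all genes). With 11 to 22 cells of either kind in a fl/fl library, differences of moderate size were not detectable at this depth.

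**Figure D3:**
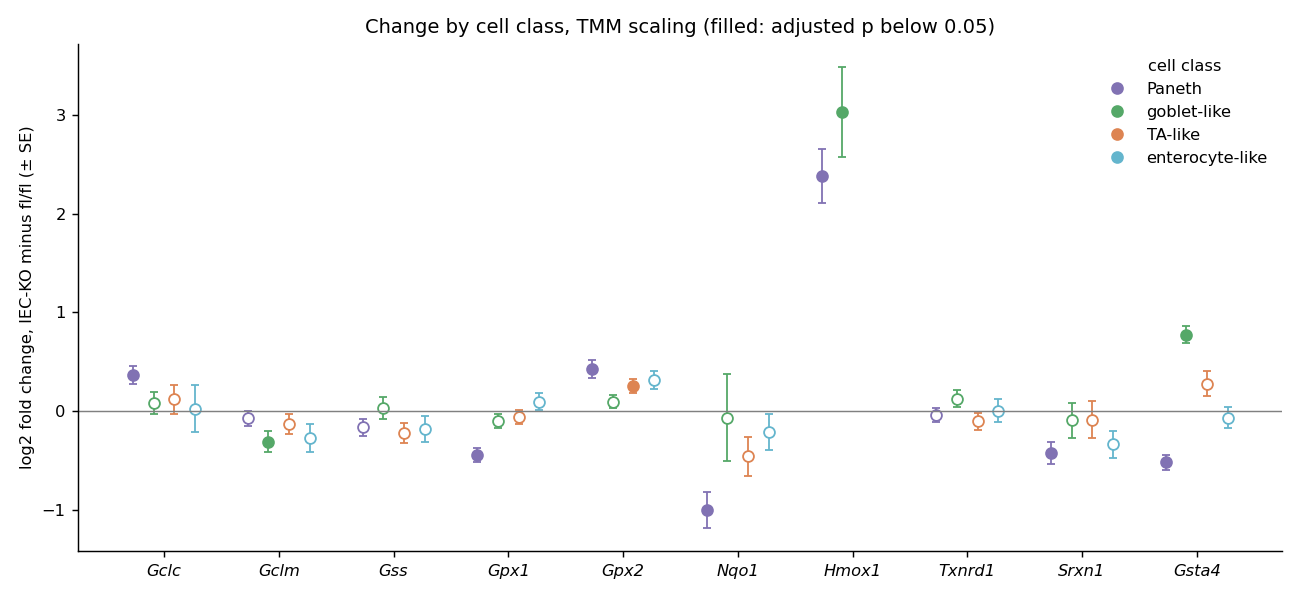
Log2 fold change (IEC-KO against fl/fl, TMM, with its standard error) of each gene in each cell class; filled points passed an adjusted p of 0.05. Gsta4 lies below 0 in Paneth cells (above 0 with library size only) and above 0 in goblet-like cells, and Hmox1, which entered the fit of goblet-like cells through the IEC-KO libraries alone, was not tested in TA-like or enterocyte-like cells.

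Whether the change differed between classes was tested in 1 model of all 16 sums (4 classes in 4 libraries, library as a block). Gsta4 differed most: its change in goblet-like cells was higher than that in Paneth cells by 1.32 on the log2 scale (SE 0.10, adjusted p = 7.06e-16, edgeR), in TA-like cells by 0.85 (SE 0.14, adjusted p = 1.89e-06) and in enterocyte-like cells by 0.51 (SE 0.10, adjusted p = 0.000133). The model was not repeated with the lower UMI limit, under which the change of Gsta4 in goblet-like cells was 0.01. That limit left a small part of the IEC-KO goblet-like cells. Gpx1, which fell in Paneth cells relative to the typical gene, had a higher change in goblet-like (0.38), TA-like (0.43) and enterocyte-like cells (0.60). The change of Gpx2 was lower in goblet-like than in Paneth cells (-0.29, adjusted p = 0.000507), a comparison not repeated with the lower UMI limit, under which goblet-like cells gave 0.49, and the change of Nqo1 was higher in enterocyte-like cells by 0.85 (adjusted p = 0.00757). Against Paneth cells, 2 of the 10 members were thus higher and 1 lower in goblet-like cells (7.7% and 6.81% of all genes), 2 and 0 in TA-like cells (14% and 8.83%), and 3 and 0 in enterocyte-like cells (9.6% and 4.17%). With scaling by library size only, the differences of Gpx1 took the other sign in all 3 classes (-0.23, -0.30 and -0.08), as did that of Gsta4 in enterocyte-like cells (-0.17). The differences of Gsta4 in TA-like cells (0.11, adjusted p = 0.516) and of Nqo1 in enterocyte-like cells (0.17, adjusted p = 0.57) were then not called, while Gsta4 stayed higher and Gpx2 lower in goblet-like cells. For Gpx2 this was no test, as 58.6% of all genes were lower in goblet-like cells on that scale.

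The level of the genes also depended on the class in the fl/fl libraries alone. Compared with Paneth cells, enterocyte-like cells had 7 members higher and 1 lower (29.5% and 25.3% of all genes). The differences were 2.46 for Nqo1, 1.92 for Srxn1, 1.75 for Gsta4, 1.13 for Gclm, 1.08 for Gss, 1.05 for Gpx1 and 0.78 for Txnrd1 on the log2 scale, each with an adjusted p under the threshold of 0.05 (edgeR). With library size only the median gene lay at 1.93 and 82.2% of all genes were higher, so that scale could not test the direction of these 7. In CPM outside the Defa genes, a total that still holds other Paneth markers, Nqo1 was at 36.8 and 28.8 in enterocyte-like cells of the fl/fl libraries. It was at 10.5 and 10.7 in TA-like cells, 2.72 and 2.50 in Paneth cells and 0.94 and 1.55 in goblet-like cells of these libraries. On this scale Nqo1 thus stepped down from enterocyte-like to TA-like to Paneth cells. The share of all genes that do so was not computed. With TMM, Nqo1 was above Paneth cells by 2.46 in enterocyte-like cells and by 0.64 in TA-like cells. In CPM outside the Defa genes, Srxn1 was at 68.1 and 61.2 in enterocyte-like cells and from 6.65 to 10.9 in the other 3 large classes. On this scale TA-like cells (10.3 and 10.9) lay above Paneth cells (8.21 and 6.65). With TMM, however, Srxn1 was lower than in Paneth cells in goblet-like (-0.81, adjusted p = 1.89e-06, edgeR) and TA-like cells (-0.87, adjusted p = 3.26e-08). Gpx2 was lower in enterocyte-like than in Paneth cells with TMM (-0.67) but higher with library size only (1.26).

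Goblet-like and TA-like cells gave no direction that held on both scales for most members. With TMM, 2 members (Gclc 0.53, Gsta4 0.23) were higher and 6 lower in goblet-like than in Paneth cells of the fl/fl libraries (23.9% and 25.3% of all genes). Library size only gave 8 higher and 0 lower (86.5% and 1.58% of all genes). In TA-like cells Nqo1 (0.64) and Txnrd1 (0.21) were higher and 4 lower with TMM (32.5% and 31.3%), and with library size only 10 were higher (93.5% of all genes).

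**Figure D4:**
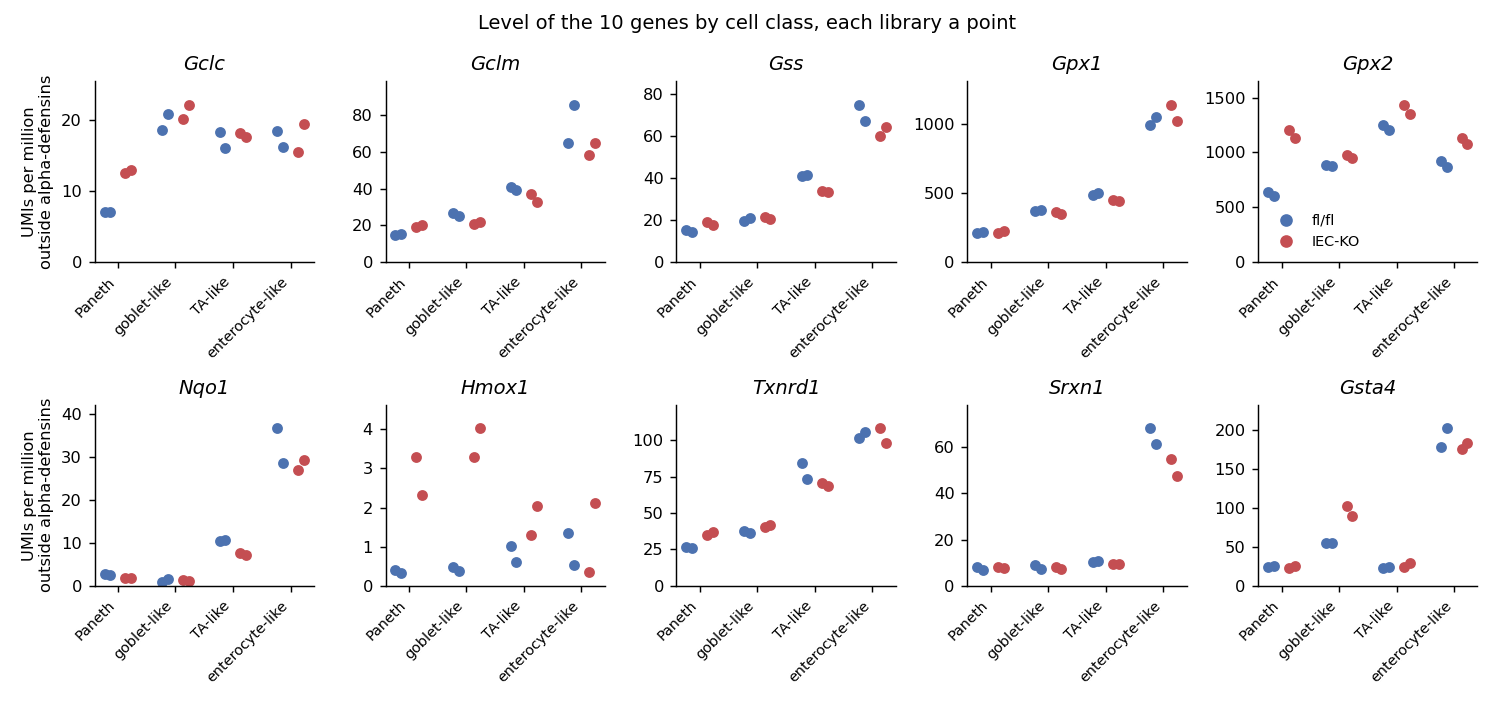
CPM of the UMIs outside the alpha-defensin genes with Defa symbols, for each gene in each cell class, 1 point per library (n = 2 per genotype). Nqo1, Srxn1 and Gsta4 are highest in enterocyte-like cells, and Hmox1 is higher in the IEC-KO libraries of Paneth and goblet-like cells.

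The other genes of these pathways were read as whole lists in Paneth cells. Each count is to be set beside the shares of all genes, 20.1% higher and 19.8% lower with TMM and 70.4% higher and 3.63% lower with library size only. Of 19 genes of glutathione synthesis, cystine supply and turnover, 8 were higher and 4 lower (median 0.16, all genes 0.00), and 15 and 1 with library size only. The members that moved most were not the synthetic enzymes. Chac1, which breaks glutathione down inside the cell, was at 1.96 and 1.82 CPM in the fl/fl libraries and at 26.8 and 25.7 CPM in the IEC-KO libraries (3.79). Cth, which makes cysteine from cystathionine, went from 3.75 and 3.85 to 28.4 and 28.1 CPM (2.89), and Slc7a11, the cystine importer, from 1.00 and 1.21 to 5.38 and 4.29 CPM (2.1). Ggt1, which begins the breakdown of glutathione outside the cell, fell from 15 and 12.7 to 3.61 and 5.23 CPM (-1.60). Glrx (-0.69) and Gsr, glutathione reductase (-0.35), were lower on the TMM scale, but Gsr turned to 0.27 with library size only. Chac1, Cth and Slc7a11 were higher on both scales.

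Chac1 and Slc7a11 were also higher in goblet-like cells (4.56 and 2.17) and TA-like cells (4.90 and 2.71), in which Gclc did not pass the test. In enterocyte-like cells Chac1 was at 1.72 and 2.01 CPM in the fl/fl libraries and at 16.6 and 18.2 CPM in the IEC-KO libraries. It passed the filter on low counts there only through the IEC-KO libraries, so its fitted change is no support.

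Of the other peroxidases, Gpx3 was lower in Paneth cells (-0.79), and of 5 peroxidases tested 1 was higher and 2 lower (4 and 0 with library size only). Of 22 glutathione S-transferases, 1 was higher and 13 lower (median -0.30), against 11 higher and 4 lower with library size only. Gstm6 (-1.36) and the microsomal Mgst1 (-1.06) fell and Gstm1 (0.40) rose, and these 3 kept their sign on both scales, unlike Gsta4. Mgst1 was at 24.7 and 25.4 CPM in the fl/fl libraries and at 11.9 and 12.1 CPM in the IEC-KO libraries.

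Of 16 genes of the thioredoxin and peroxiredoxin system, 4 were higher and 9 lower (median -0.21), or 11 and 0 with library size only, a share of higher genes near that of all genes (70.4%). Sesn2, a stress-induced sestrin, rose from 0.93 and 0.73 to 4.09 and 4.55 CPM (2.39), and Txnrd3 by 0.95. Sesn1 fell by 0.97 on the TMM scale, and Prdx5, a peroxiredoxin, by 0.47, where library size only gave 0.14 for Prdx5.

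Genes of NRF2 and its regulators followed. Of 10 genes, 5 were higher and 1 lower (median 0.20; 9 and 0 with library size only). Nfe2l2, which encodes NRF2, was at 9.78 and 10.2 CPM in the fl/fl libraries and at 11.6 and 12.8 CPM in the IEC-KO libraries (0.29, adjusted p = 0.00512, edgeR). Over the main test and its alternatives the change of Nfe2l2 ranged from -0.34 to 0.91, and not all of them called it. Keap1, which holds NRF2 in check, was at 10.4, 10.4, 10.5 and 11.2 CPM and did not pass (0.07). Nfe2l1 (1.3) and Sqstm1 (1.25) rose on both scales, and Mafk was lower with TMM (-0.47) but at 0.15 with library size only. By contrast, 15 of 18 genes of NADPH supply and quinone or aldehyde reduction, a list of NRF2 targets that holds Nqo1, were lower and 0 higher (median -0.60), against 6 lower and 4 higher with library size only. Aldh1a1, a retinaldehyde dehydrogenase, went from 5.19 and 5.36 to 1.26 and 1.78 CPM (-1.74), and Ephx1, an epoxide hydrolase, from 1.00 and 0.69 to 0.19 and 0.33 CPM (-1.62). Both were lower on both scales.

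Beside Hmox1, 3 of the 8 genes of heme breakdown and ferritin were lower and 1, Hmox1, was higher (7 and 0 higher and lower with library size only). The ferritin heavy chain Fth1 (-0.50) and the biliverdin reductase Blvrb (-0.37) were lower with TMM, and took 0.11 and 0.25 with library size only. Catalase (Cat, -0.67) and the copper chaperone Ccs (-0.35) made up the 2 lower genes among 4 superoxide dismutases and catalase, with -0.06 and 0.27 on library size only. Of 7 genes of the oxidant-producing NADPH oxidases, 0 were higher and 3 lower, among them Noxa1 (-0.36) and Cyba (-0.25), while 6 were higher with library size only. Of 14 genes of selenoprotein synthesis and further selenoproteins, 2 were higher and 2 lower. Sepp1, the plasma selenium carrier, fell from 19.6 and 19.6 to 6.15 and 6.07 CPM (-1.68), and Selk was lower with TMM (-0.45) but at 0.17 with library size only. Msrb1, a methionine sulfoxide reductase, rose by 0.55 and Sephs2, which makes the selenium donor, by 0.45.

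**Figure D5:**
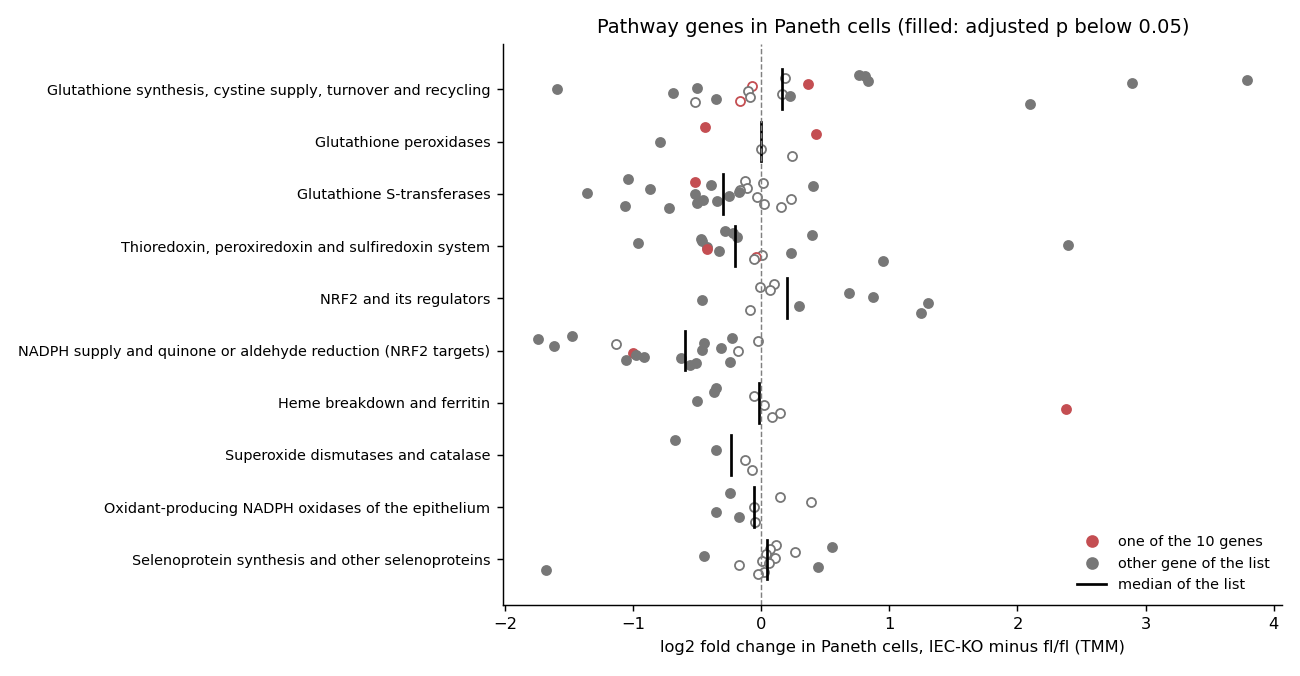
Log2 fold change (IEC-KO against fl/fl, TMM) in Paneth cells of the genes tested in each list; red points are the 10 genes of this report and black bars are list medians. The list of NADPH supply and quinone or aldehyde reduction lies lowest (median -0.60), and the largest rise is that of Chac1 (3.79).

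The starts of these genes were searched for the letters of a pair of known elements, on both strands of the 250 bases before the start in the promoter table of RefSeq (GRCm38.p6). The core of the antioxidant response element, TGACNNNGC, occurs in 10.2% of all 32851 promoters, and TGATGNAA, the composite element bound by C/EBP and ATF proteins, in 3.45%. In all 41 genes, the 10 and those named from the lists, were searched, and the table held promoters of 33, among them 7 of the 10. The shares above are per promoter and cannot be set beside counts of genes, some of which have several starts. With a match at any start counted, the antioxidant core was found for 7 of the 33 genes and the composite element for 2. Among those with the core, Gclm and Txnrd1 (1 of its 3 starts) missed the threshold in Paneth cells. Sesn2 and Nfe2l2 rose, Nfe2l2 not under every alternative. Ggt1, Mgst1 and Mafk were lower with TMM, of which Mafk was above 0 with library size only. The composite element was found before Slc7a11, on both strands, and before Chac1, which rose. The other 24 genes held neither, among them Sqstm1, Nfe2l1, Txnrd3, Msrb1, Sephs2 and Gstm1, which rose. Shown are the matches of both members, of a gene with the core that rose and of one that fell, and of both genes with the composite element. The stretches are shown in the direction of the gene, with the motif in capitals, so that a match on the opposite strand reads in reverse.
Gclm, chr3:122245414-122245440: ctcccgggcGCACCGTCAactctcacg
Txnrd1, chr10:82859105-82859131: tggatttttGCTTTGTCAttctgacac
Sesn2, chr4:132510475-132510501: gcagcgggcTGACAGAGCcgggcgagc
Mgst1, chr6:138140462-138140488: cggggcttgGCACGGTCAggaggcggg
Slc7a11, chr3:50443663-50443688: tcatgtggcTGATGCAAacctggaga
Slc7a11, chr3:50443644-50443669: ctggagaatTTGCATCAtcatgcagc
Chac1, chr2:119351040-119351065: tccctgccgTTGCATCActcctgcca
Gclm, Txnrd1, Mgst1 and Chac1 lie on the plus strand, and Sesn2 and Slc7a11 on the minus strand. A match is a match of letters and not a bound site.

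Each of the 10 genes was last set beside all other genes by its profile over the 16 sums (4 classes in 4 libraries), with Pearson's r of log2 CPM over 11240 genes as a description. The points share libraries and classes. Nqo1 was most like Tm4sf20 (0.995) and Mgst1 (0.994), Srxn1 like Ocm (0.992) and Cyp3a13 (0.99), and Txnrd1 like Gsdmc2 (0.983) and Aadac (0.983). Gss was most like Msra (0.995) and Gsdmc3 (0.987), Gclm like Mertk (0.978) and Gamt (0.977), and Gpx1 like Atp5l (0.992) and Krt19 (0.99). The profiles of Hmox1 (Vnn3 0.949, Gtpbp2 0.922), Gclc (Ghdc 0.948, H2-T23 0.92) and Gpx2 (Lyrm9 0.951, Cables2 0.946) had less close neighbours, and Gsta4 lay between (Hist1h2bc 0.973, Mocs2 0.963). No member was among the 2 nearest genes of another, though some were close to each other, such as Nqo1 to Txnrd1 (0.978) and to Gss (0.976). Other pairs ran against each other, such as Nqo1 and Gclc (-0.626).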

How the data were processed

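Single-cell RNA-seq libraries (10x Genomics 3′ kit) of 4 samples were analysed. The authors deposited raw UMI counts per gene and cell barcode, neither normalised nor annotated with cell types; Cell Ranger 2.1.1 and mm10 stand in the submitters' processing notes. All cells were used, and doublets were kept. The genes and lists were chosen with earlier results of these data known.

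Cells were classed by the share of UMIs in 13 alpha-defensin (Defa) genes. Cells under 20% were clustered with scanpy 1.11.5 (Leiden, 2000 variable genes, 30 components, resolution 1), with 961 genes, the 10 genes among them, left out, and clusters were named by markers; not counting alpha-defensins as Paneth markers there was chosen after seeing the data. Cells from 20% to under 30%, Paneth-like cells under 20% and unnamed clusters were left out of the main tests. Counts were summed per library and class and tested with edgeR 4.0.16 (quasi-likelihood, TMM, filterByExpr, Benjamini-Hochberg at 0.05). Standard errors (SE) were computed as the absolute log2 fold change divided by the square root of F. The script was tested on simulated counts.

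Beside the 10 genes, the text names Slc7a5, Nfe2l2, Keap1, Slc7a11 and Gsr, the 2 largest rises and 2 largest falls past the threshold without overlap in each pathway list, and 2 nearest genes per member. Xist, Ddx3y and leading genes of clusters were named after their values were seen. Tried as alternatives were library size scaling, TMM without alpha-defensin and ribosomal genes, other count filters, DESeq2 1.42.0, a replicate block, cells thinned to 2000 UMIs, 1 lower UMI limit, other alpha-defensin limits, doublets left out, clusters of all cells, each library left out, and, chosen after seeing the data, the Zg16-led cluster alone. Positions are from GENCODE M21 (GRCm38), joined by gene ID. Samples sharing a replicate number did not deviate together (correlations from -0.01 to 0.09).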

Additional observations from a re-analysis of the deposited data

Results flagged for a closer look

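The tests of a difference between classes gave 8 values past the threshold. Relative to its change in Paneth cells, the log2 fold change (IEC-KO against fl/fl) of Gsta4 was higher by 1.32 in goblet-like, 0.85 in TA-like and 0.51 in enterocyte-like cells. That of Gpx1 was higher by 0.38, 0.43 and 0.60 in the same order. The difference was -0.29 for Gpx2 in goblet-like cells and 0.85 for Nqo1 in enterocyte-like cells. These tests were not repeated with the lower UMI limit, under which the change in goblet-like cells was 0.01 for Gsta4 and 0.49 for Gpx2. That limit left a small part of the IEC-KO goblet-like cells. With scaling by library size only, the sign changed for Gpx1 in all 3 classes and for Gsta4 in enterocyte-like cells, and Gsta4 in TA-like cells (0.11, adjusted p = 0.516, edgeR) and Nqo1 (0.17, adjusted p = 0.57) missed the threshold. Gsta4 and Gpx2 in goblet-like cells kept theirs, which was no test of Gpx2, as 58.6% of all genes were lower there on that scale.

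Cells with an alpha-defensin share from 20% to under 30% entered none of the main comparisons, though alternatives for Paneth cells included them. Hmox1 was at 2.88 and 2.28 CPM without TMM in those of the IEC-KO libraries (40 and 41 UMIs), above the fl/fl libraries, which had 3 and 0 UMIs in such cells. Hmox1 is given for these cells because both IEC-KO libraries lay above both fl/fl libraries, so that separation is no support. The pooled ratio was 2.77 with an exact 95% interval of 0.915 to 13.7.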

How the results depend on the processing

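Scaling decided most directions in Paneth cells. With library size only, 7 members were higher and 0 lower (70.4% and 3.63% of all genes), and Gclm (0.55), Gss (0.46), Gpx1 (0.18), Txnrd1 (0.58), Srxn1 (0.20) and Gsta4 (0.10) changed sign. Thinned to 2000 UMIs per cell, 8 members could be tested, with 1 higher and 2 lower (9.55% and 8.75% of all genes); at 40% alpha-defensin or more, 2 were higher and 2 lower (12.2% and 10.9%). From 45% to under 60%, where the IEC-KO libraries have few such cells, 8 were tested, 0 were higher and 0 lower, and Gclc (-0.46) and Srxn1 (0.73) changed sign. Hmox1 kept its direction and its call in Paneth cells under the 15 alternatives that gave it a value.

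In TA-like cells 0 members were higher with library size only, DESeq2 or thinning, and 0 to 2 when a library was left out. In enterocyte-like cells 1 member, Gpx2, was higher with the replicate block, clusters of all cells, a minimum of 10 counts per library, no count filter, or TMM that leaves out ribosomal and alpha-defensin genes, and 0 to 1 when a library was left out. In enteroendocrine-like cells 1 was higher with no filter, Gsta4, from 2 and 1 UMIs in the fl/fl libraries. In goblet-like cells, where 2 were higher with Hmox1 included, 1 was higher with at least 10 counts, DESeq2 (no adjusted p for Hmox1), thinning or the Zg16-led cluster. Of goblet-like cells 0 were lower with library size only, at least 10 counts, no filter, DESeq2, thinning, 1 lower UMI limit, clusters of all cells, the Zg16-led cluster and without any 1 library (0 to 0).

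With library size only, differences in change from Paneth cells became 0 higher and 7 lower in TA-like cells (0.596% and 65.4% of all genes), with the sign changed for Gpx1 (-0.30). In enterocyte-like cells they became 0 higher and 6 lower (1.65% and 46.3%), with the sign changed, called or not, for Gss (-0.63), Gpx1 (-0.081), Txnrd1 (-0.57), Srxn1 (-0.53) and Gsta4 (-0.17). In goblet-like cells they became 1 higher and 6 lower (0.827% and 58.6%), with the sign changed for Gss (-0.37), Gpx1 (-0.23) and Txnrd1 (-0.40). Levels in the fl/fl libraries became 10 higher and 0 lower in TA-like cells (93.5% and 1.17% of all genes), with the sign changed for Gclc (2.01), Gpx1 (1.92), Gpx2 (1.71), Hmox1 (1.82), Srxn1 (1.23) and Gsta4 (0.65). In enterocyte-like cells 0 were lower (1.52%), with the sign changed for Gpx2 (1.26). In goblet-like cells 8 were higher and 0 lower (86.5% and 1.58%), with the sign changed for Gclm (1.5), Gss (1.15), Gpx1 (1.5), Gpx2 (1.2), Txnrd1 (1.17) and Srxn1 (0.81). With at least 10 counts in every library, 1 member was higher in TA-like and 1 in goblet-like cells. The cause of these moves was not tested beyond the scaling itself.

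Replicate numbers come from the labels and were not shown to pair the libraries; the replicate block moved the count of higher members in enterocyte-like cells from 0 to 1 and changed no other count of members. With 2 libraries per genotype, depth limits Hmox1 and Nqo1 most, and 11 to 22 cells per fl/fl library limit the enteroendocrine-like and tuft-like classes.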

Other observations

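Outside the classes tested, Hmox1 was found in an unnamed cluster of cells under 20% alpha-defensin, led by Plet1 and Tat, with 2 and 2 cells of the fl/fl libraries and 450 and 491 of the IEC-KO libraries. It was at 12.7 and 7.43 CPM (without TMM) there in the IEC-KO libraries, from 38 and 33 UMIs, while the fl/fl libraries gave 0 and 1 UMI of Hmox1. Gsta4 was at 28 and 24.6 CPM in the same cells of the IEC-KO libraries.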
